A study of Mus musculus with 2 samples.

Results

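Fibronectin, tenascin-C and 5 further secreted glycoproteins of the extracellular matrix were followed through the cell clusters of the mouse cornea with and without an epithelial wound. The 7 genes are *Fn1*, *Tnc*, *Sparc*, *Postn*, *Thbs2*, *Abi3bp* and *Spon1*. They were chosen by name, as an adhesive matrix protein and its matricellular companions, among the 20198 genes of the deposited count table, and all 7 were found there. Each was read per deposited cluster and per library.

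There were 2 libraries of dissociated corneal cells, prepared on the droplet platform of 10x Genomics. The paper names DNBSEQ as the sequencing platform. The unwounded library (UW) pooled the corneas of 4 untreated mice, and the wounded library (W) those of 4 mice taken 24 h after the central corneal epithelium had been scraped off. The wounded mice received pentobarbital and topical procaine before the scrape and ofloxacin after it. All were male and 6 to 8 weeks old, and no strain, genetic change or transgene is named. With 1 pooled library per condition, wounding cannot be told apart from any other difference between the 2 preparations, and no test between conditions was possible. The intervals given are exact 95% Poisson, binomial or Clopper-Pearson intervals, which cover counting error only and not the spread between mice.

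The UW library held 16450 cells and 367166822 unique molecular identifiers (UMIs, each standing for 1 captured RNA molecule), and the W library 12417 cells and 289586482 UMIs. A total of 52 cell barcodes occurred in both. The fixed keratocyte markers *Kera*, *Lum*, *Dcn*, *Col1a1* and *Col1a2* made up 74554 of each 1e+06 UMIs in cluster 0 of UW, the stromal keratocytes, and 72344 in cluster 10, a smaller stromal cluster that also held *Myoc* and *Fmod*. The 3 fixed markers of corneal endothelium, which no cluster was named for, made up 332 in cluster 0 and 1070 in cluster 10. In the 10 epithelial clusters of UW the keratocyte markers made up 241 to 585, and in those of W 285 to 479. Clusters 13 to 16 were neutrophil-like, monocyte-like (14 and 15) and T-like, and held 0 to 7 cells each in UW against 215 to 710 in W.

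Fibronectin is the adhesive glycoprotein of the provisional matrix over which epithelium migrates after a wound, and cells bind it through integrins and syndecans. Matricellular proteins are secreted into the matrix without bearing load themselves, and they modulate how cells adhere to it and how collagen fibrils are assembled. Several of them are abundant in developing and healing tissue and scarce in resting tissue, tenascin-C being the usual example. In the cornea, keratocytes of the stroma lay down the collagen matrix, and the epithelium contributes to the basement membrane between the layers.

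In the annotation of build GRCm38 (GENCODE M21) each of the 7 is a protein-coding gene. *Fn1* lies on chromosome 1 from 71585520 to 71653200, *Tnc* on chromosome 4 from 63959785 to 64047015, *Sparc* on chromosome 11 from 55394500 to 55423183 and *Thbs2* on chromosome 17 from 14665500 to 14694235, all on the minus strand. *Postn* lies on chromosome 3 from 54361109 to 54391037, *Abi3bp* on chromosome 16 from 56477878 to 56690135 and *Spon1* on chromosome 7 from 113765998 to 114043370, all on the plus strand. RefSeq promoters were at hand for 4 of the 7. The windows of *Tnc* and *Thbs2*, the 2 genes whose scaled counts were higher in W in both stromal clusters, are shown as the 250 bases before a RefSeq transcript start, 5′ to 3′ on the minus strand of GRCm38. *Tnc* has a further RefSeq start, at 64046936, whose window is not shown.
*Tnc*, chr4:64047016-64047265: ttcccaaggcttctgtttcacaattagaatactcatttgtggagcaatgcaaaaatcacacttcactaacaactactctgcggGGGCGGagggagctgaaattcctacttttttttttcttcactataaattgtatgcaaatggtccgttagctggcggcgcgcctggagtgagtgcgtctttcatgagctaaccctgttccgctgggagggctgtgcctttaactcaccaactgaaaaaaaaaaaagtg
*Thbs2*, chr17:14694263-14694512: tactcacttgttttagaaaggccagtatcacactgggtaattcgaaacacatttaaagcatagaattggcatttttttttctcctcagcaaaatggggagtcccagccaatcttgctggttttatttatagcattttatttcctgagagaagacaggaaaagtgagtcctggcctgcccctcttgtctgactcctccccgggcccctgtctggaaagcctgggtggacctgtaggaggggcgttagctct

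Capitals mark the letters of a searched motif. The searches covered both strands for the TATA box TATANAA, the GC box GGGCGG and the AP-1 site TGANTCA, and no match overlapped another. Of 32851 mouse promoter windows of the same length, 10.4% held the first, 32.7% the second and 6.75% the third. The *Tnc* window shown held 1 GC box, 167 bases before its start. The window of the further *Tnc* start, which overlaps it, held a TATA box at -29 and a GC box at -246 from that start. The *Thbs2* window held none of the 3. A match of letters is a description of the sequence and not evidence of a bound site.

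*Tnc*, whose product tenascin-C loosens cell adhesion to fibronectin, was nearly undetected in the keratocytes of unwounded cornea and had a far higher summed count in those of the wounded one. Levels are given as UMIs of the gene per 1e+06 UMIs of the cluster (CPM). Since the libraries count the 3′ ends of transcripts without regard to length, levels are compared between cells and libraries and not between genes. In cluster 0, *Tnc* had 14 UMIs over 2369 cells in UW, 0.492 CPM (interval 0.269 to 0.826), and 1115 UMIs over 1719 cells in W, 34.4 CPM (32.4 to 36.4). The W value was 69.8-fold higher (41.4 to 128), a log2 ratio above that of 99.8% of the 14245 genes measured there.

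In cluster 10, *Tnc* was already present without a wound. It stood at 120 CPM (111 to 129) in UW and 348 CPM (336 to 361) in W, which was 2.90-fold higher (2.67 to 3.16). In both libraries cluster 10 had the highest *Tnc* level of all clusters. Second place went to cluster 9 in UW, at 1.18 CPM, whose interval overlapped that of cluster 0, and to cluster 0 in W.

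*Thbs2* was the other gene with a higher CPM in W in both stromal clusters. It encodes thrombospondin-2, a matricellular regulator of collagen fibril assembly and vessel growth. Cluster 0 had 537 CPM (529 to 546) in UW and 751 CPM (742 to 761) in W, a log2 ratio of 0.48 (0.45 to 0.51). Cluster 10 had 782 and 1165 CPM, a log2 ratio of 0.58 (0.52 to 0.63). Both differences exceeded counting error. They stayed within 2-fold as CPM, while as UMIs per cell without scaling the log2 ratio in cluster 0 was 1.14, past 2-fold.

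*Sparc*, encoding osteonectin, which binds collagen and guides its deposition, was lower in W by nearly the same factor in the 2 stromal clusters. Its level was 8113 CPM in UW and 4086 CPM in W in cluster 0, a log2 ratio of -0.99 (-0.999 to -0.980). In cluster 10 it was 10660 and 5299 CPM, a log2 ratio of -1.01 (-1.03 to -0.99). A cut at 2-fold therefore leaves it just outside in cluster 0 and just inside in cluster 10.

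*Abi3bp* and *Postn* were lower in the keratocytes of W, and less so in cluster 10. *Abi3bp*, which encodes a matrix protein that binds the ABI3 adaptor, had 149 CPM (144 to 153) in UW and 70.8 CPM (67.9 to 73.7) in W in cluster 0, and 389 and 330 CPM in cluster 10. *Postn*, encoding periostin, a matricellular protein of collagen-rich and remodelling tissue, had 34.4 CPM (32.3 to 36.6) and 17.1 CPM (15.7 to 18.6) in cluster 0, and 134 and 102 CPM in cluster 10. The log2 ratios in cluster 0 were -1.07 for *Abi3bp* and -1.01 for *Postn*, with intervals of -1.15 to -0.999 and -1.16 to -0.86. Without scaling they were -0.42 and -0.36, so that neither was past 2-fold. In cluster 10 they were -0.24 and -0.39, or 0.14 and -0.01 without scaling.

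*Fn1* and *Spon1* differed by less than 2-fold between the libraries in both stromal clusters. *Fn1*, encoding fibronectin, had 393 CPM (385 to 400) in UW and 327 CPM (321 to 333) in W in cluster 0, and 461 and 529 CPM in cluster 10, so that its log2 ratio was -0.26 in the former, or 0.39 as UMIs per cell without scaling, and 0.20 in the latter. *Spon1*, encoding F-spondin, a secreted protein with thrombospondin repeats, had 1007 and 823 CPM in cluster 0 and 438 and 340 CPM in cluster 10. Its log2 ratios were -0.29 and -0.37, or 0.36 and 0.02 without scaling.

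**Figure D1:**
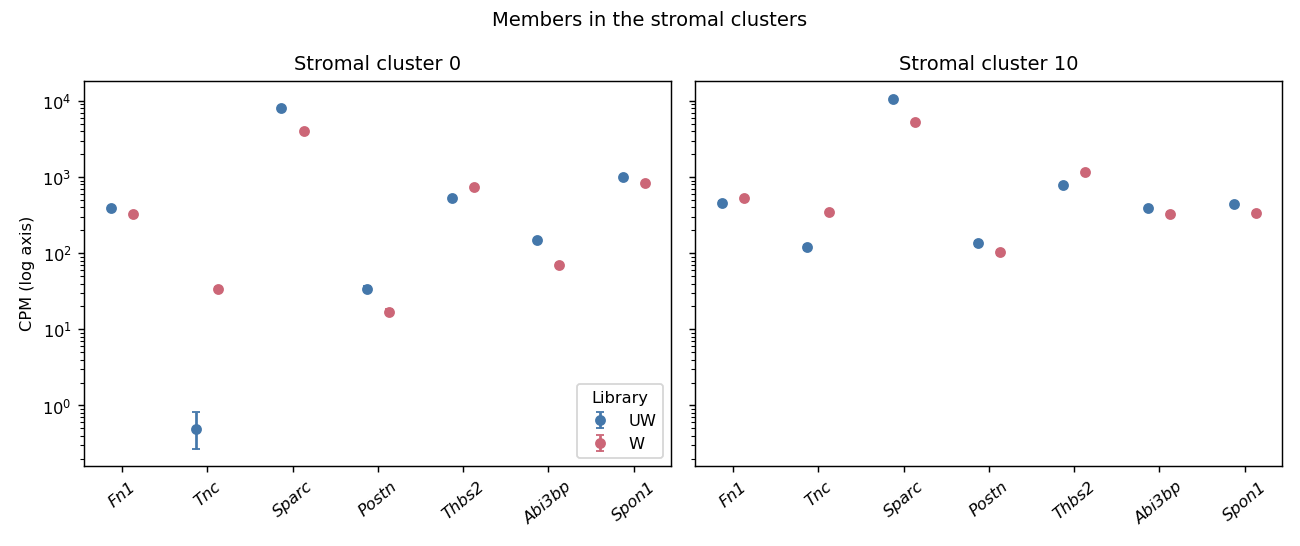
UMIs per 1e+06 UMIs of the cluster (CPM, log axis) of the 7 genes in stromal clusters 0 (left) and 10 (right), with UW in blue and W in red. Points are the single pooled library of each condition and bars are exact 95% Poisson intervals, mostly smaller than the point. *Tnc* stands at 0.492 and 34.4 CPM in cluster 0 and at 120 and 348 CPM in cluster 10.

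Counted against all genes, the 7 were a mixed group. In cluster 0, 1 of the 7 was at least 2-fold higher in W (*Tnc*) beside 7.34% of all 14245 genes with at least 20 UMIs, and 2 were at least 2-fold lower (*Postn* and *Abi3bp*) beside 9.67%. Their median log2 ratio was -0.29, and that of all genes -0.15. In cluster 10, 1 was at least 2-fold higher (*Tnc*) beside 4.97% of 12441 genes, and 1 was at least 2-fold lower (*Sparc*) beside 6.63%. The medians there were -0.24 for the 7 and -0.09 for all genes.

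Scaling bears on the small differences. Keratocytes carried more UMIs in W, with a median of 17588 per cell against 11853 in UW, and those of cluster 10 had 12198 against 9288. Without scaling, as UMIs per cell, the median log2 ratio of all genes in cluster 0 moved from -0.15 to 0.50, so that *Fn1* and *Spon1* turned higher in W. In cluster 10 the same happened to *Abi3bp* and *Spon1*, while *Sparc* remained lower in W in both clusters (-0.34 and -0.63) and *Tnc* and *Thbs2* higher. Under TMM scaling, which set the median of all genes in cluster 0 to -0.0031, only *Tnc* of the 7 was past 2-fold there, and the share of genes at least 2-fold higher became 8.77% and that at least 2-fold lower 7.27%. Without scaling these shares were 20.6% and 2.89% in cluster 0 and 9.85% and 2.998% in cluster 10.

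RNA of other cells was measured beside these values. The neutrophil gene *S100a8* was at 0.352 CPM in cluster 0 of UW and 46.0 CPM in W, and at 0.350 and 57.0 CPM in cluster 10. All 5 neutrophil markers together made up 2.14 and 87.6 CPM in cluster 0. The neutrophil-like cluster of W had 10.4 CPM of *Tnc*. The part of neutrophil RNA in the stromal values was not tested.

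Counts per cell showed how each gene was spread. Every cell was thinned to 5000 UMIs so that depth did not differ, which left out 51 UW and 11 W cells of cluster 0, and 18 and 12 of cluster 10. A *Tnc* UMI was then found in 0.216% of UW keratocytes (0.070 to 0.503) and 7.85% of W keratocytes (6.61 to 9.22). In cluster 10 the share was 31.3% (27.4 to 35.3) and 58.7% (54.7 to 62.6). Before thinning the shares were 0.549% and 19.95% in cluster 0, and 37.9% and 71.0% in cluster 10. Even in W, most cells of cluster 0 thus showed no *Tnc* at this depth, while *Tnc* was detected in a majority of the cells of cluster 10. Monocyte-like cluster 15, taken here as a comparison, had a *Tnc* UMI in 0.797% (0.097 to 2.85) of W cells thinned to 2000 UMIs. That depth is shallower than the 5000 UMIs of the stromal cells. Unthinned, the share was 3.19% at a median depth of 10144 UMIs. Cluster 15 had the lowest *Tnc* level of the immune clusters of W, at 2.95 CPM. Clusters 13, 14 and 16 had 10.4, 9.50 and 5.77 CPM.

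The other genes ranged from every cell to few. *Sparc* was detected in 100% of stromal cells of both libraries after thinning, and its median per cell went from 37 UMIs in UW to 21 in W in cluster 0 and from 51 to 26 in cluster 10. *Spon1* was found in 98.9% and 97.6% of cluster 0 cells and in 66.4% and 60% of cluster 10 cells. *Thbs2* was found in 89.6% and 94.9% of cluster 0 cells, with 3.05 and 4.105 UMIs per cell that had any. *Fn1* was found in 80.5% and 68.0% of cluster 0 cells, with 2.38 and 2.32 UMIs per cell that had any. At this depth the share of cells thus differed more than the count per cell. Before thinning the shares were 94.3% and 90.3%, and the counts per cell that had any 4.996 and 6.83. *Postn* was concentrated, and the 10% of cells with the most of it held 70.2% of its UMIs in cluster 10 of UW and 71.3% in W.

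Within cluster 10, cells with and without a *Tnc* UMI were set side by side for the other 6 genes. In UW, 171 of 547 thinned cells had one, and their mean was 3.503 UMIs of *Fn1* against 1.64 in the 376 cells without, and 5.79 against 3.51 of *Thbs2*. *Spon1* and *Postn* went the other way, with 1.25 against 2.61 and 0.450 against 0.814 UMIs. In W, with 364 cells against 256, the same 4 genes stood in the same order, at 2.96 against 1.91 for *Fn1*, 7.14 against 4.13 for *Thbs2*, 1.28 against 2.14 for *Spon1* and 0.387 against 0.785 for *Postn*. *Sparc* was at 59.9 against 52.3 UMIs in UW and 27.3 against 26.7 in W, and *Abi3bp* at 1.99 against 2.02 and 1.47 against 1.93, so these genes were nearly level in one library each. The keratocyte proteoglycan gene *Kera*, in the fixed list of keratocyte genes, was detected in 39.8% of *Tnc* cells of UW (32.4 to 47.5) and in 73.1% (68.4 to 77.6) of the rest, and in W in 28.8% and 57.0%. Other genes of that list did not follow it, with *Lum* at 42.0 against 35.6 UMIs in UW and 28.4 against 27 in W, and *Aldh3a1* at 13.3 against 14.98 and 9.85 against 10.1. Cells of 1 library are not replicates, so these are descriptions of 2 pools.

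In keratocytes of W, 134 thinned cells had a *Tnc* UMI and 1574 had none. *Fn1* at 1.72 against 1.56 UMIs, *Spon1* at 3.24 against 4.45 and *Postn* at 0.0746 against 0.0921 stood in the same order as in cluster 10, as did *Kera* at 8.72 against 13.998. *Abi3bp* was at 0.306 against 0.430. *Thbs2* had the opposite order, at 3.37 against 3.94, and so did *Sparc*, at 16.1 UMIs in cells with *Tnc* and 22.6 in cells without.

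In the epithelium *Fn1* was at least 2-fold lower in W in 6 of the 10 clusters and *Abi3bp* in 7, while *Tnc* was higher in W in all 10. Epithelial clusters are named by their deposited number and by a gene that was highest there. In cluster 1, *Dapl1* was highest in both libraries, at 3009 CPM in UW and 1087 CPM in W. *Krt14* stood there at 136 and 17124 CPM, so the cells under this number differed in other genes too. *Fn1* in cluster 1 had 110 CPM (108 to 113) in UW and 11.3 CPM (9.66 to 13.2) in W, 9.75-fold lower (8.34 to 11.5). In cluster 9, marked by *Wfdc18*, it had 136 and 20.01 CPM, and in cluster 3, where *Itgb4* was highest in W, 95.3 and 18.0 CPM. In clusters 8 (*Top2a*), 11 (*Mcm5* in W) and 4 (*Dsg1a*) it had 103 and 21.2, 80.2 and 22.6, and 33.7 and 8.30 CPM. In these 6 clusters the log2 ratio lay between -3.28 and -1.83.

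In the remaining clusters 2, 5, 6 and 7 *Fn1* was at 3.95 to 10.0 CPM in UW and 6.45 to 7.47 CPM in W. Its log2 ratio there was 0.14 (-0.13 to 0.40) in cluster 2, -0.49 (-0.74 to -0.23) in cluster 5, 0.75 (0.38 to 1.12) in cluster 6 and 0.18 (-0.21 to 0.57) in cluster 7. The first turned to -0.17 without scaling and the last to -0.07 under TMM scaling. The order of epithelial clusters in UW thus ran from cluster 9 over 1, 8, 3, 11 and 4 to the low group, and only the neighbours 1 and 8, 8 and 3, and 2 and 7 had overlapping intervals. In W the order was 11, 8, 9, 3, with overlapping intervals between neighbours, followed by clusters 1, 4, 2, 5, 6 and 7.

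*Abi3bp* in UW was higher in epithelial cluster 9, at 295 CPM (283 to 308), than in the keratocytes of cluster 0, and was exceeded only in cluster 10. In W, cluster 9 had 27.5 CPM (25.5 to 29.6), 10.7-fold lower (9.85 to 11.7). In cluster 5, marked by *Krt4* and *Krt19*, it had 68.7 and 25.4 CPM. In clusters 3, 1, 8, 11 and 4 it had 33.6 to 39.6 CPM in UW and 4.34 to 12.8 CPM in W. Clusters 2 and 6, at 10.8 and 3.45 CPM in UW, had a log2 ratio of 0.04 and 0.76, and cluster 7, with 2.73 and 1.59 CPM, one of -0.78. The ratio in cluster 2 turned to -0.27 without scaling.

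After thinning, 38.6% (36.7 to 40.6) of the UW cells of cluster 1 had an *Fn1* UMI and 4.98% (3.34 to 7.12) of its W cells. For cluster 9 the shares were 38.8% and 7.58%. For *Abi3bp* in cluster 9 the shares were 56.2% (51.8 to 60.6) and 14.9% (12.7 to 17.4). Before thinning they were 78.3% and 19.8% for *Fn1* in cluster 1, 55.1% and 29.7% in cluster 9, and 82.1% and 42.7% for *Abi3bp* in cluster 9. Thinning left out 92 UW and 29 W cells of cluster 1, and 16 and 6 of cluster 9. Both genes were therefore found in fewer cells in W, also at equal depth.

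**Figure D2:**
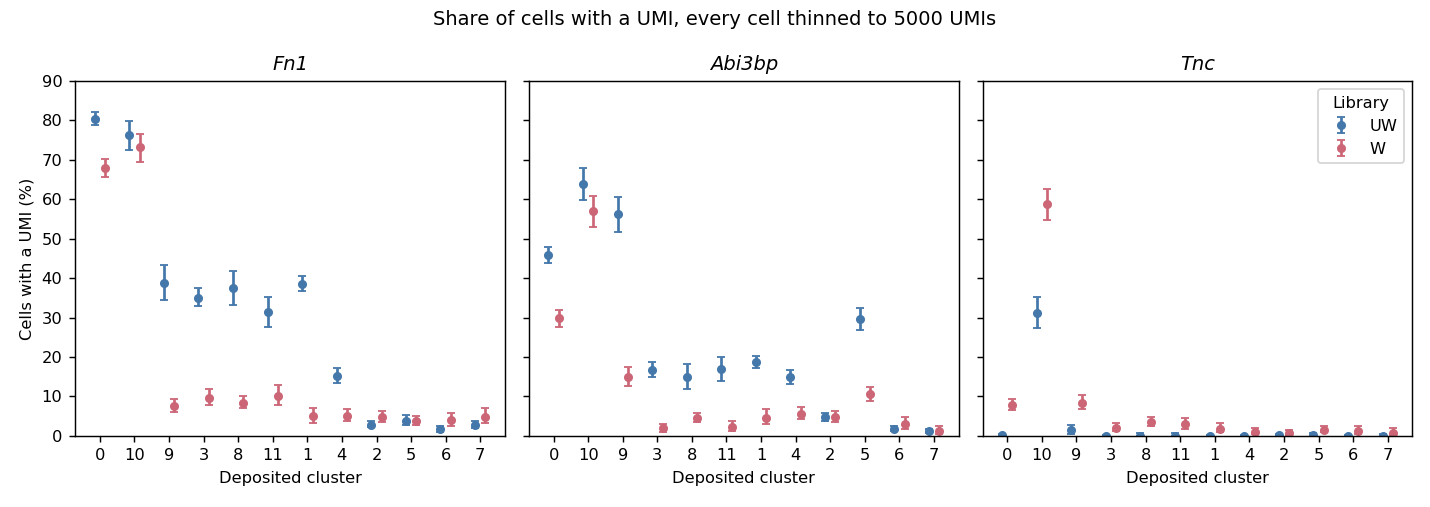
Share of cells with at least 1 UMI of *Fn1*, *Abi3bp* and *Tnc* (percent, vertical axis) in the 2 stromal and 10 epithelial clusters (horizontal axis) after thinning each of their cells to 5000 UMIs, with UW in blue, W in red and Clopper-Pearson 95% intervals as bars. *Fn1* in cluster 1 stands at 38.6% in UW and 4.98% in W, and *Tnc* in cluster 10 at 31.3% and 58.7%.

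*Tnc* was higher in W in all 10 epithelial clusters, from UMI sums of 1 to 9 per cluster in UW. Cluster 9 had 9 UMIs, 1.18 CPM (0.540 to 2.24), in UW and 458 UMIs, 18.398 CPM (16.8 to 20.2), in W, which was 15.6-fold higher (8.13 to 34.3). Cluster 8 had 1 UMI in UW and 389 in W, a ratio of 102 with an interval of 18.2 to 4046. Cluster 3 had 3 and 159 UMIs, a ratio of 76.9 (25.9 to 377). In the 7 other clusters the W level was 1.66 to 5.42 CPM. After thinning, 1.39% of UW cells (0.559 to 2.84) and 8.42% of W cells (6.73 to 10.4) of cluster 9 had a *Tnc* UMI, against 1.54% and 26.7% before. Without scaling the log2 ratio was positive in each of the 10 clusters as well.

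*S100a8* is given beside these values. It was at 2.49 and 178 CPM in cluster 9, at 2.11 and 251 CPM in cluster 8 and at 0.671 and 178 CPM in cluster 3, with its part in the *Tnc* values not tested.

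*Thbs2* was also higher in W in each epithelial cluster, but at low levels of 2.22 to 5.24 CPM in UW and 7.24 to 10.5 CPM in W. *Sparc* ranged over 25.9 to 115 CPM in UW and 27.7 to 92.1 CPM in W, *Spon1* over 2.55 to 10.4 and 5.52 to 9.60 CPM. *Spon1* was higher in W in clusters 1, 2, 4, 5, 6 and 7, with log2 ratios of 0.56 to 1.19, of which clusters 2 (1.19) and 6 (1.01) were past 2-fold as CPM and at 0.88 and 0.70 without scaling. *Sparc* was higher in clusters 1 to 4, at 0.27 to 0.64. It was lower in clusters 5 and 7, at -0.16 and -0.20, or 0.14 and -0.29 without scaling. The keratocyte markers were higher in W in clusters 1 (265 and 479 CPM) and 2 (241 and 355 CPM). They were nearly level in cluster 5 (292 and 293 CPM), and lower in clusters 8 (585 and 285 CPM) and 9 (380 and 311 CPM). Their part in these ratios was not tested. *Sparc* was also lower in W in clusters 9 and 8 (log2 ratio -0.63 and -0.51) and *Spon1* likewise (-0.74 and -0.49). All 4 of these ratios turned higher without scaling, at 0.20 and 0.10 for *Sparc* and 0.10 and 0.13 for *Spon1*. Without the cells that an earlier round of doublet calling in the deposited table had marked, 28 of UW and 58 of W in cluster 8, the ratio of *Sparc* there became 0.09.

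*Postn* rested on few epithelial UMIs, 207 in UW and 130 in W over the 10 clusters. It was lower in W in cluster 9 (26 and 12 UMIs, 7.08-fold, 3.45 to 15.4) and in cluster 8 (35 and 20 UMIs, 6.66-fold, 3.74 to 12.2). It was also lower in clusters 3 and 11, with log2 ratios of -1.43 and -1.77. It was higher in W in cluster 1 (1.74, 0.50 to 2.96) and in cluster 7 (14 and 13 UMIs, 1.496, 0.29 to 2.69). In clusters 5 (1.10, -0.11 to 2.47) and 2 (0.41, -1.02 to 1.72) the interval held 0. In clusters 4 and 6 the sums stayed under 20 UMIs and no ratio was read.

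Read against all genes, cluster 1 had 3 of the 7 genes at least 2-fold higher in W, beside 14.7% of 12647 genes. These were *Tnc*, *Thbs2* and *Postn*, the last with 14 and 12 UMIs. The keratocyte markers were also higher there in W, at 265 and 479 CPM, and their part was not tested. In the same cluster 2 genes were at least 2-fold lower (*Fn1* and *Abi3bp*) beside 11%. In cluster 3, 2 were at least 2-fold higher (*Tnc* and *Thbs2*) beside 15.1% and 3 were at least 2-fold lower (*Fn1*, *Postn* and *Abi3bp*) beside 11.1%. The *Postn* ratio there, from 47 and 12 UMIs, was -0.95 without scaling, which left 2 at least 2-fold lower. In cluster 9 the genes were *Tnc* and *Thbs2*, and *Fn1*, *Postn* and *Abi3bp*, beside 9.12% higher and 9.76% lower. Without scaling, 28.0% of genes were at least 2-fold higher and 4.97% lower in cluster 3, and 37.7% and 2.21% in cluster 9. *Fn1* and *Abi3bp* were then still lower in W in all 3, by -1.70 to -3.19 on the log2 scale.

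**Figure D3:**
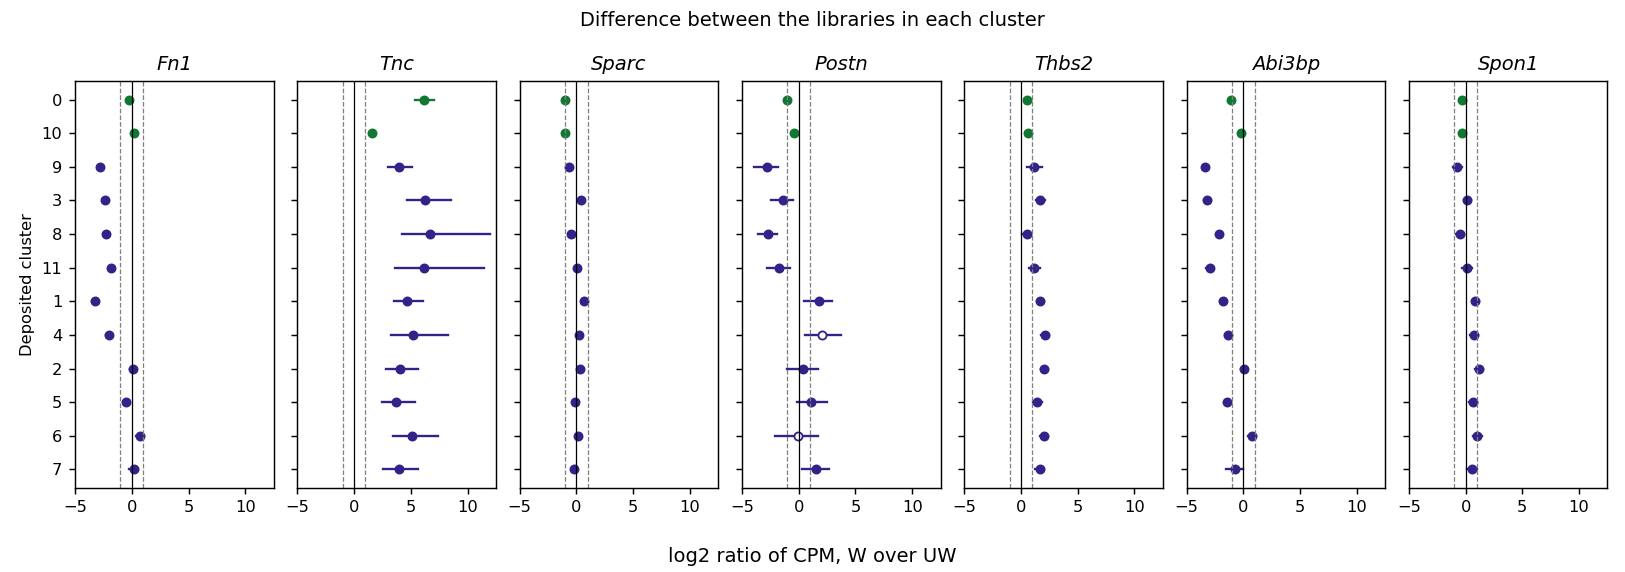
Log2 ratio of CPM, W over UW, of each of the 7 genes (horizontal axis) in the 2 stromal clusters (green) and 10 epithelial clusters (purple), with exact 95% intervals of counting error. Dashed lines mark 2-fold, and open points rest on fewer than 20 UMIs. *Fn1* lies near 0 in the stromal clusters (-0.26, or 0.39 without scaling, in cluster 0 and 0.20 in cluster 10) and between -3.28 and -1.83 in clusters 1, 3, 4, 8, 9 and 11.

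The tissue source of the RNA differed as well. Of all *Fn1* UMIs of a library, the 2 stromal clusters gave 47.5% in UW and 78.1% in W, and the epithelial clusters 52.5% and 17.4%. For *Abi3bp* the stromal share was 37.2% and 61.8%. For *Tnc* it went the other way, 94.3% and 73.3%, and the epithelial part was 5.67% and 25.3%. *Sparc*, *Postn*, *Thbs2* and *Spon1* came from the stroma by 89.4% to 95.6% of UMIs in UW and by 89.8% to 93.4% in W. The stromal clusters held 17.8% of the UW cells and 18.9% of the W cells, and the epithelial clusters 82.1% and 68.5%.

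**Figure D4:**
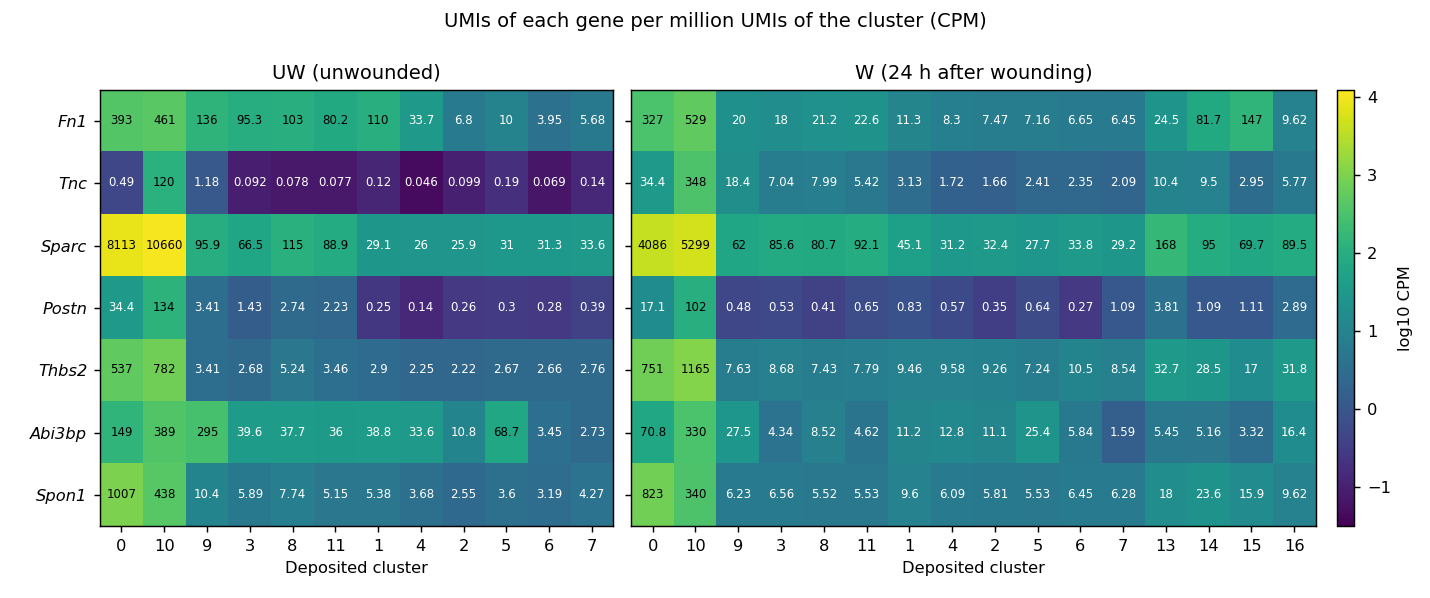
Level of each of the 7 genes in each deposited cluster with at least 50 cells, UW on the left and W on the right, as CPM printed in each cell and coloured on a log10 scale. The immune clusters 13 to 16 had too few cells in UW to be shown. *Sparc*, *Thbs2* and *Spon1* are high in clusters 0 and 10 only, while *Fn1* and *Abi3bp* also reach 136 and 295 CPM in epithelial cluster 9 of UW.

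In droplet data free RNA of lysed cells can enter any droplet, so each gene was also set against the summed UMIs of the 5 keratocyte markers. These markers themselves made up 74554 CPM of cluster 0 in UW and 38724 CPM in W, so that a ratio to them is read within a library. The part of free RNA in the epithelial values was not tested. Per 1000 marker UMIs, *Thbs2* stood in UW at 7.21 (7.09 to 7.32) in cluster 0, at 10.8 (10.5 to 11.1) in cluster 10 and at 8.64 to 11.6 in the epithelium. In W it stood at 19.4 (19.2 to 19.7) and 24.6 (24.1 to 25.1) in the stroma and at 19.8 to 29.2 in the epithelium, where the interval of the highest cluster (24.7 to 34.2) overlapped that of cluster 10. *Spon1* stood at 13.5 in cluster 0 and 6.06 in cluster 10 of UW and at 10.6 to 27.3 in the epithelium. In W it stood at 21.3 and 7.18 in the stroma and at 16.4 to 20.04 in the epithelium, above cluster 10 in each.

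*Sparc* split the epithelium. In clusters 1, 2, 4, 5, 6 and 7 it lay at 106 to 112 per 1000 marker UMIs in UW and 86.4 to 94.6 in W, beside 109 and 106 in cluster 0. In clusters 3, 8, 9 and 11 it lay at 196 to 297 in UW and 199 to 314 in W, above both stromal clusters of either library, which reached 147. In the immune clusters of W it lay at 82.3 to 108.

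*Fn1*, *Abi3bp* and *Tnc* exceeded the stromal ratio by more in some clusters. *Fn1* in cluster 1 was at 416 (404 to 429) in UW and 23.7 (20.1 to 27.7) in W, against 5.27 and 8.45 in cluster 0. *Abi3bp* in cluster 9 was at 777 in UW and 88.2 in W, against 1.996 and 1.83 in cluster 0. *Tnc* in W was at 59.1 (53.7 to 64.9) in cluster 9, 28.1 in cluster 8, 20.1 in cluster 3 and 18.5 in cluster 11, against 0.887 in cluster 0 and 7.35 in cluster 10. In clusters 1, 2, 4, 5, 6 and 7 of W *Tnc* was at 4.68 to 8.21, above the ratio of cluster 0 and around that of cluster 10. The immune clusters of W lay at 4.56 to 9.96.

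**Figure D5:**
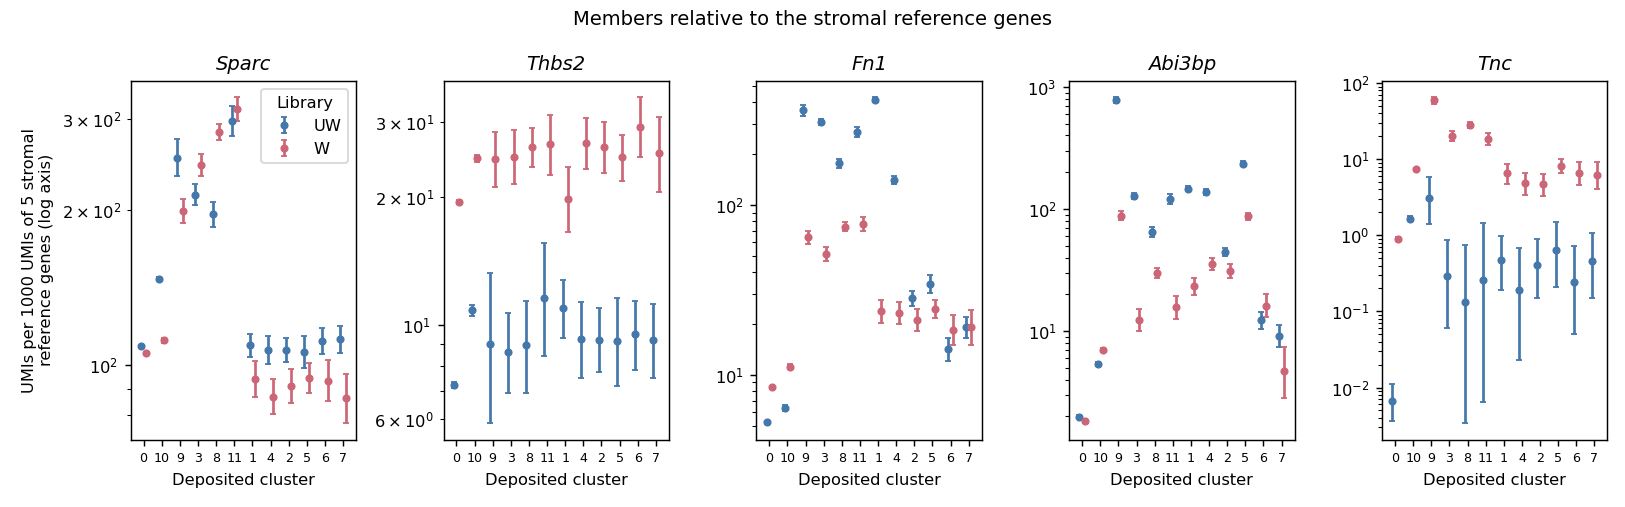
UMIs of 5 of the genes per 1000 UMIs of the keratocyte markers *Kera*, *Lum*, *Dcn*, *Col1a1* and *Col1a2* (log axis) in each deposited cluster, with UW in blue, W in red and exact 95% intervals as bars. *Thbs2* in the epithelium lies at 8.64 to 11.6 in UW and 19.8 to 29.2 in W, beside 7.21 and 10.8, and 19.4 and 24.6, in stromal clusters 0 and 10, while *Fn1* in cluster 1 of UW reaches 416.

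Among immune cells of W, *Fn1* was highest in the monocyte-like clusters. It had 147 CPM (133 to 162) in cluster 15 and 81.7 CPM (72.7 to 91.4) in cluster 14, against 24.5 CPM in the neutrophil-like and 9.62 CPM in the T-like cluster. Per 1000 keratocyte marker UMIs it stood at 227 in cluster 15, 85.7 in cluster 14, 14.95 in cluster 13 and 8.85 in cluster 16. The last was within counting error of the 8.45 of cluster 0. The study describes macrophages marked by *Arg1*, which encodes arginase 1, in wounded corneas. *Arg1* stood at 1333 CPM in cluster 15 and 251 CPM in cluster 14, but also at 665 CPM in epithelial cluster 6 and 478 CPM in cluster 2 of W. After thinning to 2000 UMIs, an *Arg1* UMI was found in 58.2% (51.8 to 64.3) of cells of cluster 15 and 19.3% (14.9 to 24.2) of cluster 14, against 5.99% (4.21 to 8.24) of the neutrophil-like and 6.34% (3.42 to 10.6) of the T-like cluster. The part of free *Arg1* RNA was not tested. After the same thinning to 2000 UMIs, *Fn1* was at 167 CPM (100 to 260) in the 57 cells of cluster 14 with an *Arg1* UMI and at 56.5 CPM (37.2 to 82.2) in the 239 without. In cluster 15 it was at 164 CPM (121 to 218) in 146 cells and 85.7 CPM (50.8 to 135) in 105. *Sparc* stood in the same order in cluster 14, at 123 CPM (67.1 to 206) with and 62.8 CPM (42.3 to 89.6) without an *Arg1* UMI. In cluster 15 *Sparc* had the opposite order, at 44.5 and 57.1 CPM. The shares of cells with an *Fn1* UMI were 17.5% and 8.79% in cluster 14, and 15.8% and 12.4% in cluster 15, with overlapping intervals in each cluster.

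Related genes were counted in keratocytes from fixed lists, and 18 of their genes were at least 2-fold apart in cluster 0, of which 14 had at least 100 UMIs. Among 32 related glycoproteins, 26 were measured, and 7 were at least 2-fold higher and 2 lower in W, beside 7.34% and 9.67% of all genes. Without scaling 12 were higher and 1, *Spock2*, lower, beside 20.6% and 2.89% of all genes. *Spp1*, encoding osteopontin, an adhesive phosphoprotein of injured tissue, had 1.16 and 55.7 CPM (log2 ratio 5.58, 5.09 to 6.13). *Fbln1*, encoding fibulin-1, had 5.70 and 16.9 CPM, *Ecm1* 12.7 and 33.9 CPM and *Spon2*, encoding spondin-2, 0.914 and 2.28 CPM. *Fbln5*, encoding the elastic fibre protein fibulin-5, had 866 and 372 CPM (log2 ratio -1.22, or -0.57 without scaling), and *Spock2*, encoding a testican proteoglycan, 7.31 and 1.14 CPM. The other 3 that were higher had under 100 UMIs each.

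Of 17 receptors that bind these proteins, 16 were measured, and 2 were at least 2-fold higher and 2 lower, beside the same shares of all genes. Without scaling 4 were higher and none was lower, beside 20.6% and 2.89% of all genes. *Cd47*, a receptor of thrombospondin, had 177 and 362 CPM in cluster 0 (log2 ratio 1.03). *Sdc1*, encoding the matrix-binding proteoglycan syndecan-1, had 122 and 51.0 CPM, and *Itga4*, encoding an integrin subunit that binds fibronectin, 36.5 and 16.2 CPM. Their log2 ratios of -1.26 and -1.17 became -0.60 and -0.51 without scaling. *Itgav* and *Itgb6*, encoding integrin subunits, went from 0.36 and 0.97 to 1.01 and 1.62. *Cd36*, a further thrombospondin receptor named here after its values were seen, had 0 and 24 UMIs in cluster 0 but 79.0 CPM in monocyte-like cluster 15 of W.

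Of 10 matrix assembly enzymes, 9 were measured and 1 was at least 2-fold higher beside 7.34% of all genes, or 4 without scaling beside 20.6%. The former was *Lox*, encoding lysyl oxidase, which crosslinks collagen and elastin, at 123 and 337 CPM. Of 6 contractile and fibrotic genes, 5 were measured, and 1 was at least 2-fold higher and 2 lower beside 7.34% and 9.67% of all genes, or 2 and 1 without scaling beside 20.6% and 2.89%. *Acta2*, encoding smooth muscle actin, had 2.64 and 6.72 CPM in cluster 0 but 48.3 and 27.4 CPM in cluster 10, a log2 ratio of -0.82, or -0.44 without scaling. *Myl9*, a myosin light chain gene, had 52.2 and 14.5 CPM in cluster 0. Of 6 keratocyte genes, 5 were measured and *Kera*, at 7482 and 2537 CPM, was the only one past 2-fold (log2 ratio -1.56, or -0.91 without scaling), beside 9.67% of all genes at least 2-fold lower. In cluster 10, 5 of 29 related glycoproteins were at least 2-fold higher and 2 lower in W, beside 4.97% and 6.63% of all genes, and without scaling 9 and 1, beside 9.85% and 2.998%. *Lox* there had a log2 ratio of 0.68, or 1.06 without scaling.

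Genes with the most similar pattern over 28 groups of cluster and library were sought among 11716 genes by Pearson's r of log2(CPM + 1). The groups come from the same libraries, differ in depth and may share stromal background, so r is a description. *Thbs2* was closest to *Dpep1*, *Pdgfrb* and *Mmp2* (0.995 each), *C1s1* and *Sod3*, and *Spon1* to *Slc4a4* (0.990), *Col6a3*, *Slc26a7*, *Pcsk2* and *Tbx2*. *Sparc* was closest to *Col12a1* (0.987), *Col16a1*, *Cdh11*, *Fkbp7* and *Scx*, and *Postn* to *Fmod* (0.979), *Hey1*, *Fxyd1*, *Col16a1* and *Wisp1*. *Tnc* had *Cxcl5* (0.951), *Serpina3n*, *Iigp1*, *Chil1* and *Mmp3* (0.889). *Fn1* had *Ankrd28* (0.927), *Extl2*, *Pogk*, *Pld1* and *Katnal1*, and *Abi3bp* had *1810010H24Rik* (0.912), *Abhd14b*, *Maml2* and *Bend5* among its nearest. Between the 7 genes themselves r ran from 0.317 for *Tnc* and *Abi3bp* to 0.964 for *Sparc* and *Spon1*.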

How the data were processed

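The deposited table holds UMI counts per gene and cell, which the authors made with Cell Ranger 3.1.0 and filtered in Seurat, without normalization. The paper's methods name the mm10 reference and a V2 kit, and the labels list mm9 and a v3 kit. A second deposited table gives library, cluster and doublet calls of each cell, and the authors state that doublets were taken out. The 2 libraries hold fewer cells here than the paper states.

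Counts were summed per deposited cluster and library and given per 1e+06 UMIs (CPM). Ratios carry exact conditional binomial intervals and were read from 20 UMIs over both sums and at least 50 cells per library, and a sum of 0 allows up to 3 counts. Shares of cells were taken before and after thinning (seed 1) to 5000 UMIs per cell, or 2000 for immune clusters. Clusters were named from fixed markers. The computation was tested on simulated sums. The genes, lists and markers were chosen with earlier results of these data known.

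The text names the 7 genes, the 5 genes most like each, and list genes past 2-fold with at least 100 UMIs in cluster 0, at most 5 in each direction, apart from those said to be chosen later and the markers. Some genes that meet this rule are not reported here. Likeness used genes with at least 10 CPM in a group and a pseudocount of 1 CPM. Positions came from GENCODE M21 and promoters from RefSeq (GRCm38.p6). Alternatives were a stricter cell filter (1000 genes, 5% mitochondrial UMIs), TMM (edgeR 4.0.16) and median-of-ratios (DESeq2 1.42.0) scaling, a total without mitochondrial, haemoglobin and ribosomal protein genes, thinning, the mean of each cell's CPM and removal of earlier doublet calls. UMIs per cell without scaling, and removal of the 52 shared barcodes, were added after the data had been seen. Python 3.11.15 with numpy 2.4.6, scipy 1.17.1, pandas 2.3.3 and matplotlib 3.10.9, and R 4.3.3, were used.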

Additional observations from a re-analysis of the deposited data

Results flagged for a closer look

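*Fn1* was higher in W in stromal cluster 10 and lower in epithelial cluster 1, with log2 ratios of W over UW of 0.20 and -3.28. In stromal cluster 0 the ratio was -0.26, or 0.39 without scaling. Of the 10 epithelial clusters, 6 lay between -3.28 and -1.83, and clusters 2, 5, 6 and 7 between -0.49 and 0.75. The difference between these ratios was not tested, since each condition is 1 pooled library.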

How the results depend on the processing

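No paired analysis was possible because each condition has 1 library. No ratio of a gene past 2-fold turned its sign under any alternative run. In cluster 0, TMM scaling gave log2 ratios of -0.11 for *Fn1*, -0.84 for *Sparc*, 0.64 for *Thbs2*, -0.92 for *Abi3bp* and -0.14 for *Spon1*. Median-of-ratios scaling gave -0.11, -0.83, 0.64, -0.92 and -0.13 for the same genes and -0.85 for *Postn*. A total without mitochondrial, haemoglobin and ribosomal protein genes gave -0.17, -0.90, 0.58, -0.98 and -0.20 for *Fn1*, *Sparc*, *Thbs2*, *Abi3bp* and *Spon1*, and the mean of each cell's CPM -0.32, -0.87, 0.54, -0.95 and -0.23. Thinning gave -0.85 for *Sparc*, -0.84 for *Abi3bp* and -0.21 for *Spon1*, and removal of earlier doublet calls -0.97 for *Sparc*. UMIs per cell without scaling, chosen after seeing the data, gave 0.39 for *Fn1*, -0.34 for *Sparc*, -0.36 for *Postn*, 1.14 for *Thbs2*, -0.42 for *Abi3bp* and 0.36 for *Spon1*. The number of the 7 genes past 2-fold in cluster 0, 3, became 1 under both scalings, the reduced total and thinning. In cluster 10, 2 became 1 under both scalings, the reduced total and no scaling. *Tnc* is the gene left past 2-fold in each of these. Without scaling, *Tnc* and *Thbs2* were past 2-fold in cluster 0. Over all alternatives, 2 of 63 ratios changed sign in cluster 0, 2 of 63 in cluster 10 and 20 of 598 in the epithelium.

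Depth limits the low genes. All genes past 2-fold numbered 2423 in cluster 0 with a minimum of 20 UMIs and 1454 with 100, and 1443 in cluster 10 with 20, 585 with 100 and 2755 with at least 1 UMI in each library. After thinning no *Tnc* UMI was left in clusters 3, 4, 6, 8 and 11 of UW. Set to 3 counts, the log2 ratios in clusters 3 and 8 were 3.79 and 2.67, and in clusters 4, 6 and 11 the sums were under 20 UMIs and no ratio was read.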

Other observations

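Cluster 17 held 29 cells, all of W, too few to be compared, and stayed unnamed. The 5 keratocyte markers made up 39380 CPM there against 38724 CPM in cluster 0 of W, and *S100a8* stood at 1578 CPM against 46.0 CPM. *Fn1* was at 223 CPM (185 to 267), *Sparc* at 4491 CPM, *Thbs2* at 709 CPM, *Spon1* at 835 CPM and *Abi3bp* at 88.2 CPM, all within 1.5-fold of cluster 0 of W. *Tnc* was at 16.9 CPM (7.72 to 32.1), from 9 UMIs.

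Receptors named here after their values were seen differed in where they lay. *Stab1*, encoding stabilin-1, a scavenger receptor that takes up the *Sparc* product, stood at 137 CPM (124 to 152) in monocyte-like cluster 15 of W and 39.9 CPM in cluster 14, against 3.11 CPM in cluster 0. *Itga9*, encoding an integrin subunit that binds tenascin-C, was at 31.5 CPM in UW and 22.2 CPM in W in cluster 10, at 15.6 and 12.2 CPM in cluster 0 and at 20.7 CPM (15.6 to 26.8) in cluster 15 of W. *Itga5*, the subunit of the main fibronectin receptor, was at 50.6 CPM in cluster 15 and 36.9 CPM in cluster 14, and at 5.91 and 5.98 CPM in cluster 0. *Sdc4*, encoding syndecan-4, a coreceptor for fibronectin, was at 1585 and 649 CPM in cluster 1, at 953 and 632 CPM in cluster 9 and at 1066 and 1307 CPM in cluster 0.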
